A study of Mus musculus with 6 samples.

Results

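The genes described here are 10 immediate early genes of the mouse, namely the AP-1 genes Fos, Fosb, Fosl1, Fosl2, Jun, Junb and Jund, the related Atf3, and the early response genes Egr1 and Nr4a1. They were chosen by name, and all 10 were among the 15016 genes of the deposited table and among the 11780 genes tested. Their RNA was measured by RNA-seq in organoids grown from wild-type cochlear progenitor cells, in 3 libraries from stiff gels and 3 from soft gels. All organoids had first been expanded for 8 to 10 days with EGF, bFGF and IGF (50 ng/mL each), the Wnt-activating GSK3 inhibitor CHIR99021 (3 µM), valproic acid (500 µM), an ascorbic acid derivative and the compound 616452 (2 µM). The medium was then exchanged for one with CHIR99021 (3 µM) and LY411575 (5 µM), an inhibitor of gamma-secretase and thereby of Notch cleavage, and at this differentiation stage the organoids went into the stiff or the soft GelMA-HA-RGD hydrogel, a mix of modified gelatin, hyaluronic acid and a cell adhesion peptide. The comparison asks whether these genes differ with matrix stiffness. The labels give neither the stiffness values, nor the time in the gels, nor the age of the donor animals, and they do not say whether the replicates were separate cultures, so the spread between libraries may be technical.

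Immediate early genes are transcribed within minutes of a stimulus from factors that are already in the cell, such as SRF and CREB, which are switched on by MAP kinases, calcium and changes in actin. AP-1 is a dimer of leucine zipper proteins. Fos proteins bind DNA only with a partner, mostly a Jun protein, whereas Jun proteins can also pair with each other, so the make-up of the Fos and Jun families sets which dimers can form. In the cochlea, Fos, Egr1 and Atf3 are known for their induction by noise exposure.

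Levels are in FPKM, a read count divided by gene length and by depth, which is how the deposited values were read. They were compared as log2(FPKM + 1) with limma, and the word called stands for a p under 0.05 after Benjamini-Hochberg adjustment over all genes tested. Depth over the listed genes ranged from 16108470 to 17825127 reads in stiff libraries and from 17328469 to 17899391 reads in soft libraries. Soft replicate 1 stood apart. On the first principal component, with 62.5% of the variance, the stiff libraries lay between 7.89 and 17.3, soft replicates 2 and 3 at -16.1 and -18.9, and soft replicate 1 at -1.94. Progenitor and supporting cell markers of the cochlear epithelium were present, and their summed level was higher in stiff gels. It was 1219 to 1347 FPKM in stiff libraries against 881 to 1079 FPKM in soft libraries. Of 18 tested markers 8 were called higher and 0 lower by limma, against 3.13% and 2.68% of all tested genes. Cdh1 went the other way, at 55.5 FPKM in stiff and 64.5 FPKM in soft gels, without overlap. The authors' deposited table has 10 markers higher and 1 lower at q under 0.05. The limma count higher was 12 when soft replicate 1 was left out, where 860 of all tested genes were called higher. It was 4 for stiff replicate 3 and for soft replicate 3 (90 and 124 of all genes). For soft replicate 2 it was 1 and for stiff replicate 1 it was 0 (50 and 66 of all genes). Of 10 hair cell markers 6 were in the table, at a summed level of 27.2 to 29.0 FPKM in stiff and 26.1 to 27.4 FPKM in soft libraries, and the 3 tested were not called. Most of this sum was Myo6, at 23.3 FPKM in stiff and 21.8 FPKM in soft gels, and Gfi1 and Otof averaged at most 0.109 FPKM. Espn was lower in every stiff library than in any soft one, at 2.19 against 2.95 FPKM (limma adjusted p = 0.138). The sum of the mesenchyme markers was 762 to 785 FPKM in stiff and 608 to 735 FPKM in soft libraries, mostly from Lum and Dcn. Lum averaged 411 FPKM in stiff and 326 FPKM in soft gels and Dcn 181 FPKM in stiff and 125 FPKM in soft gels, whereas Col3a1 was at 35.1 FPKM in stiff and 72.7 FPKM in soft gels. Of these markers, 0 of 8 tested were called by limma (3 at an unadjusted p under 0.05; 1 called lower by limma-voom, 0 in the authors' deposited table). Glial and neuron markers summed to 26.5 to 27.5 FPKM in stiff and 26.2 to 30.6 FPKM in soft libraries. Of 11 immune markers only Cd68 and Lyz2 were in the table, at a summed 4.85 to 6.82 FPKM in stiff and 4.58 to 6.59 FPKM in soft libraries. The endothelial gene Pecam1 was at 0.0531 FPKM in stiff and 0.0672 FPKM in soft gels, although the endothelial list of 9 genes summed to 345 to 431 FPKM in stiff and 399 to 464 FPKM in soft libraries, mostly through Emcn, with Kdr as its 1 call, at 10.7 FPKM in stiff and 24.7 FPKM in soft gels. The part of cell make-up in the results below was not tested, and in bulk RNA fewer cells of a type and less RNA per cell cannot be told apart.

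In stiff gels Fosb, Nr4a1 and Atf3 rose, by 2.64-fold, 1.66-fold and 1.56-fold in mean FPKM, while Fos itself had nearly the same mean in both gels. Of the 10 genes 3 were called higher and 0 lower by limma. Of all tested genes 5.81% were called, 3.13% higher and 2.68% lower. Without adjustment 7 of the 10 had a p under 0.05, against 21.7% of all tested genes. Leaving out soft replicate 2 left 1 call higher, Fosb, and 0 lower, in a fit that called 0.425% of all tested genes higher and 0.127% lower. Leaving out soft replicate 1 gave 4 calls higher and 1 lower, where 7.28% of all tested genes were called higher and 6.50% lower. The stiff libraries lay wholly above the soft ones for Fosb, Nr4a1, Atf3 and Egr1 (15.5% of all tested genes), and wholly below them for Fosl2 (10.4%). The median log2 fold change (stiff minus soft) was 0.28 over the 10 genes and 0.03 over all tested genes. By the q-values of the authors' deposited table, Fosb, Nr4a1, Atf3 and Egr1 were higher (4 of the 10) and 0 were lower at q under 0.05. The same table has 9.46% of the tested genes past that q, 4.09% higher and 5.37% lower.

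**Figure D1:**
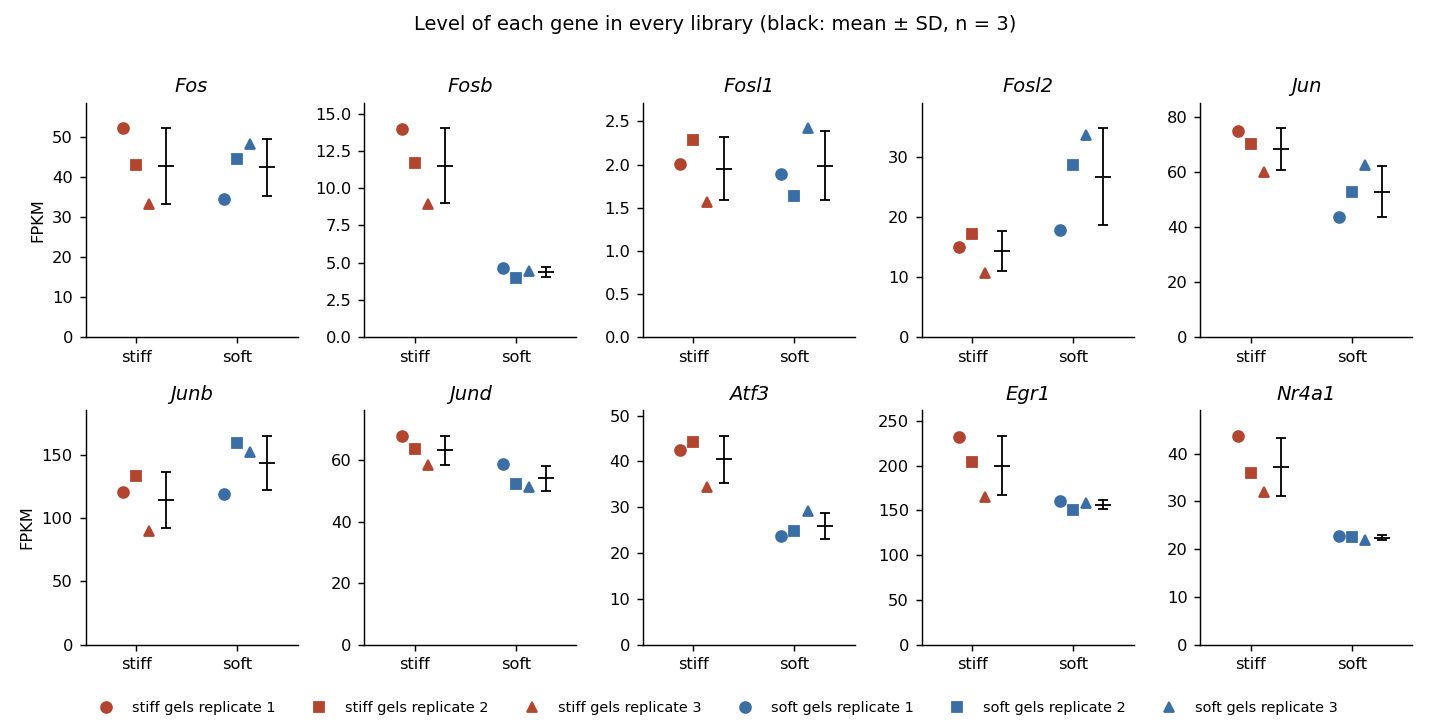
Level of each of the 10 genes in FPKM (vertical axes from 0, each gene with its own scale) in stiff and soft gels, with 1 point per library and the mean ± SD in black (n = 3). The stiff and soft points do not overlap for Fosb, Fosl2, Atf3, Egr1 and Nr4a1, and stiff replicate 3 is the lowest stiff point in all 10 panels.

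Fosb (chromosome 7, 19302696 to 19310051, minus strand, build mm10) encodes a Fos protein that partners with Jun proteins; its shorter splice form, which lacks the activating end, is not told apart in a value per gene. It was at 13.98, 11.7 and 8.91 FPKM in stiff replicates 1 to 3, against 4.62, 3.995 and 4.47 FPKM in soft replicates 1 to 3, from 270 to 941 reads per library. Every stiff library was above every soft one, and the soft libraries were close together, with a coefficient of variation of 7.43% against 22.0% in stiff gels. The log2 fold change was 1.21 ± 0.14 (SE; limma adjusted p = 0.00494), the 10th largest rise of the 11780 tested genes. Fosb was the only one of the 10 genes to stay called in each of the 6 fits that left out 1 library (limma adjusted p up to 0.0374). The authors' deposited table gives a log2 fold change of 1.38 ± 0.15 (SE).

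Nr4a1 (chromosome 15, 101254269 to 101274795, plus strand) encodes the orphan nuclear receptor Nur77. It was at 43.8, 36.0 and 31.9 FPKM in stiff gels, against 22.9, 22.5 and 21.8 FPKM in soft gels. The soft libraries again lay in a narrow band, with a coefficient of variation of 2.29% against 16.2% in stiff gels, and the groups did not overlap. Its log2 fold change was 0.70 ± 0.10 (SE; limma adjusted p = 0.0104). The call was lost only without soft replicate 2 (limma adjusted p = 0.0554).

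Atf3 (chromosome 1, 191170296 to 191218039, minus strand) encodes a stress-induced leucine zipper protein that can repress as a homodimer and that also pairs with Jun proteins. It was at 42.4, 44.3 and 34.5 FPKM in stiff gels, against 23.7, 24.8 and 29.1 FPKM in soft gels, and the lowest stiff library was above the highest soft one. The log2 fold change was 0.62 ± 0.11 (SE; limma adjusted p = 0.0159). It was called in 4 of the 6 fits with 1 library left out, and not without stiff replicate 1 (limma adjusted p = 0.0789) or without soft replicate 2 (0.0756).

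Egr1 (chromosome 18, 34859823 to 34864984, plus strand), a zinc finger factor and a standard readout of MAP kinase and SRF activity, was the most abundant of the 10 genes per length. It was at 232, 204 and 165 FPKM in stiff gels, against 160, 151 and 159 FPKM in soft gels, so the groups were apart but stiff replicate 3 was close to the soft libraries. With a log2 fold change of 0.34 ± 0.11 (SE) it was not called (limma adjusted p = 0.113). It was called without stiff replicate 3, at a log2 fold change of 0.47 (limma adjusted p = 0.0442; 0.763% of all genes were called higher in that fit). Its q-value in the authors' deposited table is 0.0340.

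Fos (chromosome 12, 85473890 to 85477273, plus strand), the namesake of the family, was at 52.3, 43.1 and 33.3 FPKM in stiff gels, against 34.6, 44.7 and 48.3 FPKM in soft gels. The groups covered the same range, with means of 42.9 ± 9.48 FPKM in stiff and 42.5 ± 7.12 FPKM in soft gels (SD, n = 3 each), from 1132 to 1965 reads per library. The log2 fold change was 0.00363 ± 0.16 (SE; limma adjusted p = 0.994), and its sign changed with the scaling. Fosl1 (chromosome 19, 5447547 to 5455946, plus strand), which encodes Fra-1, was the least abundant, at 2.01, 2.29 and 1.57 FPKM in stiff and 1.90, 1.64 and 2.42 FPKM in soft gels. Its 43 to 74 reads per library limit what could be seen, and it was not called (log2 fold change -0.01 ± 0.13 SE, limma adjusted p = 0.969).

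Fosl2 (chromosome 5, 32135801 to 32157842, plus strand), which encodes Fra-2, was the only one of the 10 genes with every stiff library below every soft one. It was at 15.02, 17.2 and 10.7 FPKM in stiff gels, against 17.8, 28.6 and 33.7 FPKM in soft gels. The gap was narrow, since soft replicate 1 lay just above the highest stiff library, at 17.8 against 17.2 FPKM. The log2 fold change of -0.83 ± 0.22 (SE) missed the threshold (limma adjusted p = 0.0656), as did the q of 0.0564 in the authors' deposited table. Without soft replicate 1 it was called lower, at -1.09 (limma adjusted p = 0.00271; 6.50% of all genes were called lower in that fit), and likewise with limma-voom on reads rebuilt from the FPKM (-0.91, adjusted p = 0.0426, where 3.97% of all genes were called lower).

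Of the Jun genes, 0 of 3 were called with all 6 libraries, and they did not move as 1 group. Jun (chromosome 4, 95049034 to 95052222, minus strand) was at 74.9, 70.2 and 60.1 FPKM in stiff gels, against 43.5, 52.6 and 62.4 FPKM in soft gels; only soft replicate 3 lay within the stiff range. Its log2 fold change was 0.37 ± 0.13 (SE; limma adjusted p = 0.126). Junb (chromosome 8, 84974484 to 84978718, minus strand), which in mouse fibroblasts can dampen the action of Jun, was at 120, 133 and 89.9 FPKM in stiff gels, against 119, 159 and 152 FPKM in soft gels. Soft replicate 1 was within the stiff range, and the log2 fold change was -0.33 ± 0.15 (SE; limma adjusted p = 0.245). Jund (chromosome 8, 70698949 to 70700616, plus strand), the most steadily expressed Jun gene in most cells, was at 67.9, 63.5 and 58.4 FPKM in stiff gels, against 58.6, 52.2 and 51.4 FPKM in soft gels. The groups touched between stiff replicate 3 and soft replicate 1, and the log2 fold change was 0.22 ± 0.08 (SE; limma adjusted p = 0.133); without soft replicate 1 it was called higher (0.28, limma adjusted p = 0.0380; 7.28% of all genes were called higher in that fit).

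**Figure D2:**
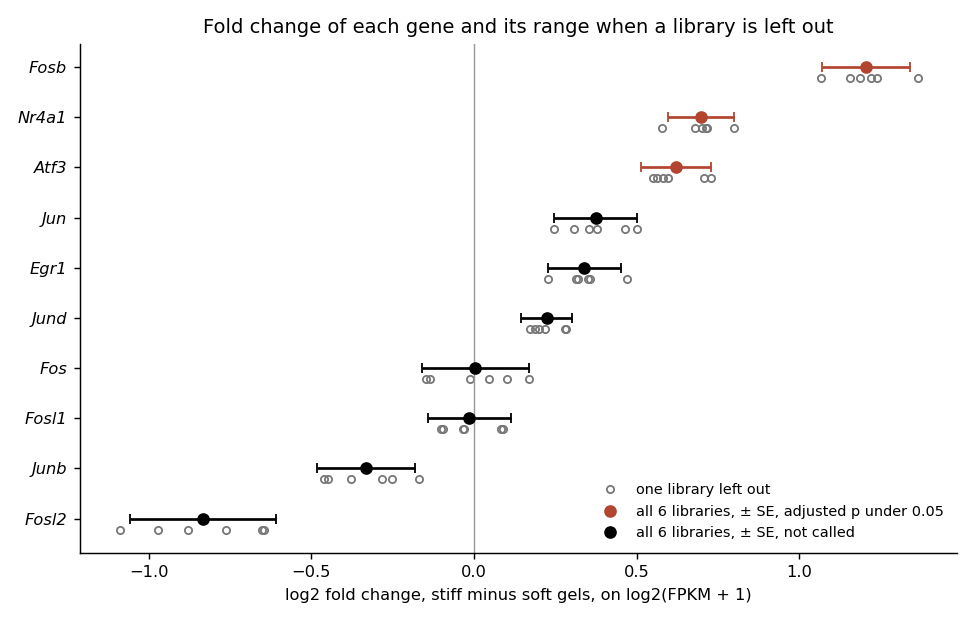
Log2 fold change of each gene, stiff minus soft gels, on the log2(FPKM + 1) scale, ± SE with all 6 libraries (filled points; red where the limma adjusted p was under 0.05) and in the 6 fits that each leave out 1 library (open points). Fosb, Nr4a1, Atf3, Jun, Egr1 and Jund kept a positive sign in each fit, Junb and Fosl2 a negative one, and Fos and Fosl1 lay on both sides of 0.

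Because FPKM is scaled by length, the genes of each family can be set against each other within a library. The summed level of the 4 Fos genes was 83.3, 74.3 and 54.5 FPKM in stiff replicates 1 to 3 and 58.9, 78.9 and 88.9 FPKM in soft replicates 1 to 3, so the totals overlapped. Their make-up was apart for Fosb and Fosl2. Fosb took 16.8%, 15.7% and 16.4% of the Fos family level in stiff gels, against 7.84%, 5.06% and 5.03% in soft gels. Fosl2 took 18.04%, 23.2% and 19.6% in stiff gels, against 30.2%, 36.2% and 37.9% in soft gels. Fos held the largest share in every library, 58.1% to 62.8% in stiff and 54.3% to 58.7% in soft gels, with overlap.

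The ratio of Fosb to Fos was nearly constant among the stiff libraries, at 0.267, 0.271 and 0.267, although Fos itself ranged from 33.3 to 52.3 FPKM there. In soft libraries the ratio was 0.134, 0.0894 and 0.0925. In the Jun family the sum overlapped too, while the shares of Jun and Junb did not. The sum was 263, 267 and 208 FPKM in stiff gels and 221, 264 and 266 FPKM in soft gels. Jun took 28.5%, 26.3% and 28.8% of it in stiff gels, against 19.7%, 19.9% and 23.4% in soft gels, and Junb took 45.7%, 49.8% and 43.1% in stiff gels, against 53.8%, 60.3% and 57.3% in soft gels. The ratio of Junb to Jun was 1.61, 1.89 and 1.496 in stiff libraries and 2.73, 3.02 and 2.44 in soft libraries, without overlap. These shares and ratios were looked at after the values of the genes were known and are given without a test.

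**Figure D3:**
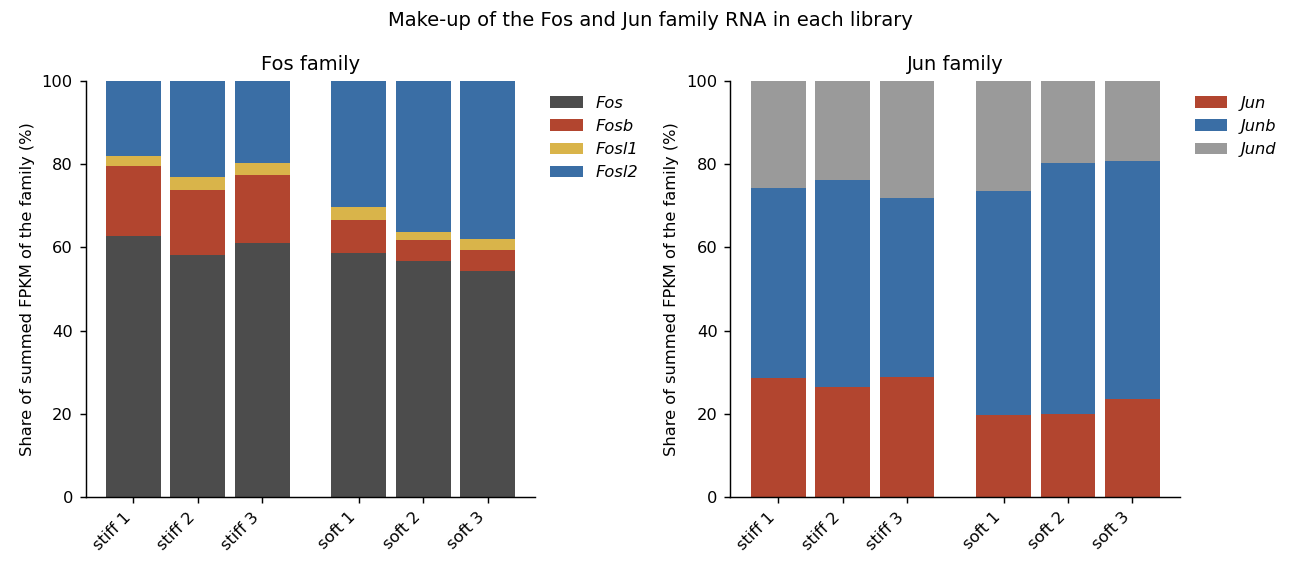
Share of each gene in the summed FPKM of the Fos family (left) and of the Jun family (right) in each library, in percent, with the stiff libraries left of the soft ones. Fosb and Jun take a larger share, and Fosl2 and Junb a smaller share, in each stiff library than in any soft library.

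By level per length the order differed little between the gels. In stiff gels it was Egr1, Junb, Jun, Jund, Fos, Atf3, Nr4a1, Fosl2, Fosb and Fosl1, from 200 to 1.95 FPKM on average. The libraries of neighbours overlapped for Jun and Jund, for Fos, Atf3 and Nr4a1, and for Fosl2 and Fosb. In soft gels Egr1 (157 FPKM) and Junb (143 FPKM) overlapped, as did Jund, Jun and Fos, and Fosl2 and Atf3, and Fosb stood well below Nr4a1 and above Fosl1. Among the stiff libraries replicate 3 had the lowest level of all 10 genes, whereas it was the lowest stiff library for 28.1% of all tested genes. Among the soft libraries replicate 1 was the lowest for 5 of the 10 genes, namely Fos, Fosl2, Jun, Junb and Atf3, and for 33.2% of all tested genes.

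The profiles over the 6 libraries were also compared with those of all other named genes tested (11504 genes), by the root mean square difference of the centred log2(FPKM + 1) values. Nearest to Fosb were Otoa, which encodes the inner ear protein otoancorin (0.14), the sulfotransferase gene Chst8 (0.17) and the placental growth factor gene Pgf (0.19). Otoa was at 21.1, 17.7 and 17.1 FPKM in stiff gels, against 8.36, 8.45 and 7.54 FPKM in soft gels. Nearest to Nr4a1 were Hspa2, a heat shock 70 family gene (0.09), the serine protease gene Tmprss6 (0.09) and the homeobox gene Six2 (0.10). Of the other 9 genes, the nearest to Fosb was Nr4a1 (0.27), ahead of Atf3 (0.32), and the farthest was Fosl2 (1.07). The nearest to Nr4a1 were Atf3 (0.15), Egr1 (0.19), Jun (0.24) and Jund (0.25), all nearer than Fosb. These distances describe 6 libraries that share 1 contrast.

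The promoters of Fosb and Nr4a1, which were called, and of Fos and Junb, which were not, are printed here since all 4 hold the short core of the cAMP response element, the sequence through which CREB and related factors act. Of the 10 genes 8 have an entry in the RefSeq promoter table (build GRCm38.p6, the assembly of mm10), all but Fosl1 and Egr1. Within the 250 bases before the RefSeq gene start, both strands were searched for the cAMP response element TGACGTCA, its core TGACG (contained in the full element), the AP-1 site TGANTCA, the CArG box bound by SRF, the EGR site GCGTGGGCG and the TATA box TATAAA. The letters below run 5′ to 3′ on the strand of the gene and hold no base that GENCODE places in an exon of that gene. The RefSeq starts of Fosb, Nr4a1 and Atf3 lie inside the annotated genes, downstream of their outermost annotated starts. For Fosb the printed stretch of 244 bases therefore ends at base 7 before the RefSeq start. Those of Junb and Jund lie upstream of the annotated genes. The Junb window reaches down to base 84978749, and its minus-strand gene begins at 84978718. The Jund window ends at base 70697738, and the gene begins at 70698949. Capitals mark the core, which reads CGTCA where it lies on the other strand, and the TATA box.
Fosb, chr7:19310052-19310295, minus strand: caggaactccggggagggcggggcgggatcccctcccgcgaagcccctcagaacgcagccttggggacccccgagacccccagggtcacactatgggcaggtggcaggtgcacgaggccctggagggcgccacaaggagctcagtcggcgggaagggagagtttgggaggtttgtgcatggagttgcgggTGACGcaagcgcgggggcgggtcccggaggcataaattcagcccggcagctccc
Nr4a1, chr15:101266596-101266845, plus strand: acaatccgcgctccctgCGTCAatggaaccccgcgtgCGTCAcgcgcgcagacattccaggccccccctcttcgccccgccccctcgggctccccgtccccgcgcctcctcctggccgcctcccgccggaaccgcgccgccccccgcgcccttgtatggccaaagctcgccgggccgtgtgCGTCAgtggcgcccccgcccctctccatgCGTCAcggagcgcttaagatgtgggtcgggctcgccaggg
Fos, chr12:85473640-85473889, plus strand: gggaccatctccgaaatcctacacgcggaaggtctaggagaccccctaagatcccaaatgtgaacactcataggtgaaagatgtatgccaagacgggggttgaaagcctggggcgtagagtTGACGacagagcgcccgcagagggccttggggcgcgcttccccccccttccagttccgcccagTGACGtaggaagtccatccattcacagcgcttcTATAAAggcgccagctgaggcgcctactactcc
Junb, chr8:84978749-84978998, minus strand: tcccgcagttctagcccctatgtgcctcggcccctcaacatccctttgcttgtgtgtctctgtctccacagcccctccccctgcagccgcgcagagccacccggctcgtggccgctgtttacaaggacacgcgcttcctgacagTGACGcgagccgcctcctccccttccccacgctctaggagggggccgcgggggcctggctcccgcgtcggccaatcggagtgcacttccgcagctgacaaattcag

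The core was found in 5 of the 8 windows, those of Fos, Fosb, Junb, Atf3 and Nr4a1, and in 17.8% of the 32851 promoters of the table. Nr4a1 had 4 such matches, the nearest to the start at bases 40 to 36 before it, and Fos had 2, the nearer at bases 66 to 62. Fosb had 1 match at bases 60 to 56 and Junb 1 at bases 106 to 102. The 1 match of Atf3, at bases 7 to 3, falls within an annotated exon of that gene. Genes that rose and genes that were not called thus both had it. The GC content of the 5 windows with the core ran from 58.4% for Fos to 74.4% for Nr4a1. The median over all promoters was 52.4%, and the part of GC content in these matches was not tested. Fos alone had the TATA box, at bases 33 to 28, which 12.4% of all promoters hold. The full element, the AP-1 site, the CArG box and the EGR site were in 0 of the 8 windows, against 1.55%, 6.75%, 1.47% and 0.536% of all promoters. Only exact matches to these patterns were counted, so the variant TGACATCA in the Jun window was not. Bases farther upstream were not searched, nor were Fosl1 and Egr1, so a lack of such sites in these genes cannot be read from this. The core was added to the search after the full element had no match. A match is no proof of a site in use.

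Other immediate early genes went both ways. Of 26 listed, 23 were tested, 2 were called higher and 4 lower, with a median log2 fold change of -0.14. Of all tested genes 3.13% were called higher and 2.68% lower. Klf6, a zinc finger factor, was at 31.2, 31.2 and 27.6 FPKM in stiff gels, against 17.1, 16.7 and 19.5 FPKM in soft gels (log2 fold change 0.73 ± 0.08 SE, limma adjusted p = 0.00486). Klf4 rose as well, by 0.41 on the log2 scale. Cebpd and Cebpb, leucine zipper factors of the acute phase response, fell. Cebpd was at 4.72, 4.76 and 3.46 FPKM in stiff gels, against 7.53, 9.69 and 9.47 FPKM in soft gels, and Cebpb at 17.0, 17.7 and 12.0 FPKM in stiff gels, against 24.3, 38.0 and 40.6 FPKM in soft gels. Myc and Sgk1, the other genes called lower, had log2 fold changes of -0.28 and -0.53. They, and the genes of the lists below that were not called, were picked for naming after their values were seen. The close relatives Egr2, Egr3 and Nr4a2 were not called; Egr3 was at 11.4 ± 2.28 FPKM in stiff and 8.77 ± 0.93 FPKM in soft gels (SD, n = 3 each; limma adjusted p = 0.180). Nr4a3 was under the filter, at 0.361 FPKM in stiff and 0.178 FPKM in soft gels. With 1 library left out the calls of this list ranged from 1 to 2 higher and from 0 to 9 lower. There were 9 lower when soft replicate 1 and 0 lower when soft replicate 2 was left out. Those fits called 767 and 15 of all tested genes lower.

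The machinery above and beside AP-1 showed few calls, and limma called 3.13% of all tested genes higher and 2.68% lower. For lists this short, 0 or 1 call is near those shares. Of 24 tested MAP kinases and upstream kinases 0 were called by limma, with a median log2 fold change of 0.02. At an unadjusted limma p under 0.05 there were 6, against 21.7% of all tested genes. By limma-voom 1 was called higher and 1 lower, and at q under 0.05 the authors' deposited table has 1 higher and 2 lower. Of all tested genes limma-voom called 403 higher and 468 lower, and the deposited table has 482 higher and 632 lower. For 4 of the 24 kinases every stiff library was above every soft one, and for 1 below. Of all tested genes these were 15.5% and 10.4%. Of 11 tested genes for SRF, its cofactors and CREB coactivators 0 were called by limma, with 2 at an unadjusted p under 0.05. By limma-voom 0 were called, and the authors' deposited table has 1 lower. The median log2 fold change was -0.13. For 4 of the 11, Elk1, Elk4, Crebbp and Crtc2, every stiff library was below every soft one, and for 0 above. Srf was at 26.7 ± 2.53 FPKM in stiff and 26.6 ± 0.84 FPKM in soft gels (SD, n = 3 each). Among 18 tested leucine zipper partners 0 were called higher and 1 lower, Nfe2l2, the factor of the antioxidant response, at 36.8, 37.9 and 36.2 FPKM in stiff gels, against 46.3, 49.7 and 56.4 FPKM in soft gels.

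Of 19 MAP kinase phosphatases and inhibitors of early genes 1 was called higher and 1 lower. At an unadjusted p under 0.05 there were 10, against 21.7% of all tested genes. For 7 every stiff library was below every soft one, against 10.4% of all tested genes. The count lower was 2 by limma-voom, 5 in the authors' deposited table and 5 when soft replicate 1 was left out. Of all tested genes 3.97%, 5.37% and 6.50% were lower there, in that order. Dusp8, a phosphatase of JNK and p38, was at 5.77, 6.01 and 5.12 FPKM in stiff gels, against 4.26, 3.55 and 3.15 FPKM in soft gels (log2 fold change 0.52 ± 0.10 SE, limma adjusted p = 0.0232). Dusp2, a phosphatase of MAP kinases, was at 1.80, 2.37 and 1.19 FPKM in stiff gels, against 4.21, 12.3 and 11.9 FPKM in soft gels (-1.81 ± 0.33 SE, limma adjusted p = 0.0180). For Dusp2 the soft libraries were far apart, with replicate 1 lowest. The early response phosphatase gene Dusp1 was at 19.4 ± 2.18 FPKM in stiff and 18.4 ± 4.16 FPKM in soft gels (SD, n = 3 each; limma adjusted p = 0.810).

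Genes described elsewhere as AP-1 targets were mostly lower where they were called. Of 28 listed, 24 were in the table and 19 were tested. By limma 1 was called higher and 8 lower, against 3.13% and 2.68% of all tested genes. The median log2 fold change was -0.42 against 0.03 over all tested genes. Spp1, which encodes the secreted matrix protein osteopontin, was at 136, 129 and 105 FPKM in stiff gels, against 249, 351 and 471 FPKM in soft gels (log2 fold change -1.49 ± 0.20 SE, limma adjusted p = 0.00918). The cytokine gene Lif was at 2.19, 2.24 and 1.86 FPKM in stiff gels, against 3.23, 4.76 and 5.61 FPKM in soft gels (-0.81 ± 0.15 SE, limma adjusted p = 0.0198). Ezr, which encodes the membrane linker ezrin, rose, at 71.8, 61.9 and 61.9 FPKM in stiff gels, against 56.3, 45.7 and 42.6 FPKM in soft gels (0.43 ± 0.11 SE, limma adjusted p = 0.0478). With no filter or with median-ratio scaling 0 genes of this list were called higher. The other genes called lower were Timp1, Plaur, Ccl2, Ptgs2, Hmox1 and Plau, also picked after their values were seen. Of the 5 listed genes under the filter, Mmp10 was higher in every stiff library than in any soft one. It was at 0.932 FPKM in stiff and 0.217 FPKM in soft gels, from 5 to 40 reads per library. The others, Mmp3, Mmp13, Areg and Fgf7, overlapped between the gels. Leaving out soft replicate 1 gave 10 calls lower, where 767 of all tested genes were called lower. Leaving out stiff replicate 2 gave 6, where 216 of all tested genes were. But there were 2 when soft replicate 3 was left out, 1 each for stiff replicates 1 and 3, and 0 for soft replicate 2. Those fits called 86, 47, 54 and 15 of all tested genes lower, in that order. These targets are shared with other factors, and the list was set up with earlier results of these data known.

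**Figure D4:**
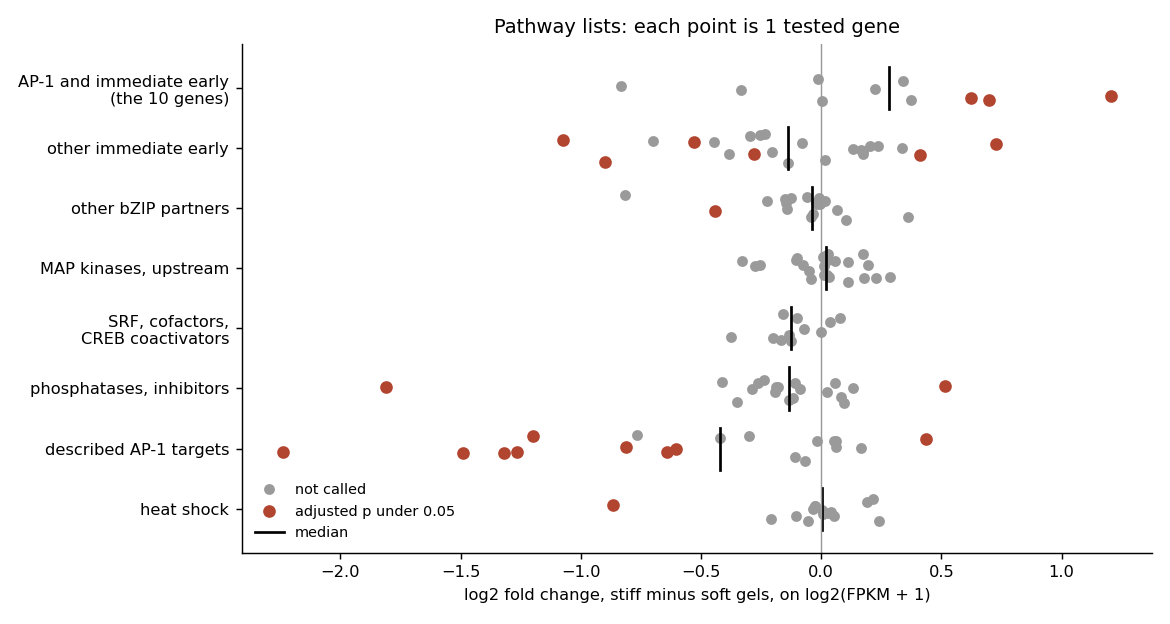
Log2 fold change, stiff minus soft gels, on the log2(FPKM + 1) scale, of each tested gene in 8 lists (1 point per gene, red where the limma adjusted p was under 0.05, black line at the list's median; vertical scatter has no meaning). The median is 0.28 for the 10 genes described here and -0.42 for the described AP-1 targets. It is 0.02 for the kinase list and 0.0032 for the heat shock list.

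Heat shock genes, which respond to handling and protein stress, were given as a comparison. Of 15 tested 0 were called higher and 1 lower, against 3.13% and 2.68% of all tested genes. Hspb8, the small heat shock protein gene called lower, was at 24.8, 26.6 and 22.4 FPKM in stiff gels. In soft gels it was at 39.0, 46.7 and 52.2 FPKM (limma adjusted p = 0.00732). At an unadjusted limma p under 0.05 there were 5, against 21.7% of all tested genes. Every stiff library was above every soft one for 3, Hspa1a, Dnajb1 and Dnajb4, and below for 2, Hspb8 and Bag3. Of all tested genes these were 15.5% and 10.4%. The median log2 fold change of the list was 0.0032, and its summed level was 3492 to 3542 FPKM in stiff and 3406 to 3720 FPKM in soft libraries. Most of the sum came from Hsp90ab1 (1746 FPKM in stiff, 1777 FPKM in soft gels) and Hspa8 (813 and 798 FPKM). Hspa1a added only 1.83 FPKM in stiff and 1.44 FPKM in soft gels, and Hspa1b 4.84 and 4.60 FPKM, so the sum says little about them.

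Most calls in these lists were lost in at least 1 fit that left out a library. Klf6 and Hspb8 were called in each of the 6 fits that left out 1 library (limma adjusted p up to 0.0355 and 0.0446). Spp1 and Cebpd missed the threshold only when soft replicate 2 was left out (0.0515 and 0.0518), and Nfe2l2 missed it in the fits without stiff replicate 1, stiff replicate 3 or soft replicate 2 (0.0637 to 0.0718). Cebpb, Dusp2 and Lif were called in the fits without stiff replicate 2 or soft replicate 1 and in no other, with limma adjusted p up to 0.0822, 0.0812 and 0.0848. Klf4, Dusp8 and Ezr were called only in the fit without soft replicate 1, with limma adjusted p up to 0.0888, 0.0964 and 0.164 in the others.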

How the data were processed

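RNA was extracted in TRIzol, cleaned on columns, and libraries were made with the TruSeq v2 kit, which does not keep the strand, per the labels' protocols. Per the submitters' processing notes, TopHat2 2.1.1, DESeq2 and the mouse build mm10 were used. The program that counted reads and its annotation: not given in the sources used here. In the deposited table there is 1 expression value per gene and library, taken as FPKM from the authors: the header does not name the unit, which was read from the values. The deposited base mean is a signal (the authors' mean normalized count), and the log2 fold change, its standard error and test score, the fold ratio and the p-value and q-value are the authors' own comparison, per the file headers. Recomputed Benjamini-Hochberg values matched the deposited q-values within 1.9e-06.

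Whole reads per gene were rebuilt from the FPKM steps and the base mean; 100.0% of values were whole within 0.05 reads. The 11780 genes whose mean reached 1 FPKM in stiff or in soft gels were tested on log2(FPKM + 1) with limma 3.58.1 (eBayes with trend, R 4.3.3), without a block, two-sided, and the code was tested on simulated data. Fold changes on this scale understate those of low genes. At these depths a count of 0 leaves room for up to 3 reads, or 0.168 to 0.186 CPM, for counting error only. The alternatives were a pseudocount of 0.1, no filter, median-ratio scaling, limma-voom on rebuilt reads, the authors' deposited table, a replicate block and leaving out each library. Named were the 10 genes, up to 2 called genes per list and direction, and the 3 nearest profiles to Fosb and to Nr4a1. The 10 genes and the lists were chosen with earlier results of these data known. Coordinates are from GENCODE M21 (mm10). Without strand, reads of Jun, Junb, Jund, Fosl1 and Atf3 cannot be told apart from those of Junos, Prdx2, Gm11175, Ccdc85b and Gm24748, which overlap them on the other strand. Protein sequences were not used here.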

Additional observations from a re-analysis of the deposited data

How the results depend on the processing

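Fosb, Nr4a1 and Atf3 were called higher with every change that kept all 6 libraries: the pseudocount of 0.1, no filter, median-ratio scaling, limma-voom on rebuilt reads, the authors' deposited table and the replicate block. With 1 library left out, from 1 to 4 of the 10 genes were called higher and from 0 to 1 lower, and over all genes from 50 to 860 were called higher and from 15 to 767 lower. The authors' deposited table has 632 of the tested genes lower and 482 higher, against 316 and 369 by limma, and limma-voom called 1 of the 10 genes lower, Fosl2. The log2 fold change of Fos, 0.00363 with all 6 libraries, was -0.024 under median-ratio scaling, -0.025 with limma-voom and -0.015 in the authors' deposited table, and ranged from -0.15 to 0.17 with 1 library left out, below 0 when that was stiff replicate 1 (-0.15) or 2 (-0.012) or soft replicate 1 (-0.14). That of Fosl1, -0.015, ranged from -0.10 to 0.088, above 0 when stiff replicate 3 (0.083) or soft replicate 3 (0.088) was left out. The cause of these changes was not tested. The differences in family share (stiff minus soft, in percentage points) kept their sign with 1 library left out, at 9.83 to 11.2 for Fosb, -16.8 to -12.9 for Fosl2, 6.19 to 8.06 for Jun and -12.7 to -9.29 for Junb. The differences in family sum did not, at -13.2 to 3.24 FPKM for the Fos genes and -19.1 to 14.4 FPKM for the Jun genes. The labels do not say whether replicate numbers pair the samples. Deviations of same-numbered libraries from their group means correlated at 0.009, 0.219 and -0.211. Differently numbered ones correlated at -0.382 to 0.347. Deviations from a mean of 3 libraries depend on each other, so these values cannot settle whether the samples were paired. With the replicate number as a block 381 genes were higher and 329 lower, 3 of the 10 genes were called higher and 0 lower, and the log2 fold changes were the same by construction. Fosl1 had the fewest reads, 43 to 74 per library.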
